A study of Homo sapiens with 6 samples.

Results

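The collagen gene family was taken as the protein-coding genes whose symbol is COL, a number, A and a number. This rule found 44 of the 58735 genes in the deposited table. RNA was measured in 6 libraries of H9, an established human embryonic stem cell line, taken during differentiation into cardiac organoids, which are 3-dimensional cultures of heart cell types. The groups were day 0, day 2, day 3, day 4, day 6 and day 30 of differentiation, with 1 library each, and each library came from 10 organoids, as the labels state. No genotype or added agent is named in the labels, and every library carries the cell type label embryonic stem cell. A single library stands for each day, so no difference could be set against replicates and p-values are not given. Intervals are 95% intervals of the read counts, cover counting error only, and leave out variation between cultures. No molecular identifiers were used, so copies of 1 molecule count as separate reads and the true counting error may be wider.

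The table gives FPKM, in which reads are scaled by gene length and by a denominator for each library. Whole reads could be recovered from it, and the libraries held 13500887 to 15526924 of them. Pluripotency markers (POU5F1, NANOG, SOX2, DPPA4, L1TD1 and PRDM14) summed to 1311 FPKM at day 0 and to 2.40 FPKM at day 30. All 7 cardiomyocyte markers reached 1 FPKM at day 30. In a bulk library, fewer cells of a type and less RNA per cell cannot be told apart.

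Collagens are extracellular proteins in which chains with regularly spaced glycines wind around each other into a triple helix. Fibrillar collagens such as types I and III form the tensile fibres of connective tissue and of the heart's interstitium. Network collagens, above all type IV, form the sheet of basement membranes. Type VI forms beaded filaments close to cells, fibril-associated collagens sit on the surface of fibrils, and transmembrane collagens are anchored in the cell membrane. In the heart, fibroblasts are known as the main source of fibrillar collagen.

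The 44 genes were grouped as 11 fibrillar, 9 network, 5 beaded filament, 10 fibril-associated, 4 transmembrane, 2 multiplexin, 1 anchoring fibril and 2 unclassified genes. The glycine repeat was read from GENCODE 29 coding sequences (GRCh38, the build of all coordinates here), and every one of the 44 genes held such a repeat. The longest unbroken run of codon triplets that begin with glycine was 216 to 343 triplets in fibrillar genes, 38 to 66 in network genes and 37 to 87 in beaded filament genes. The lowest of all 44 was 23 triplets, in COL26A1. A pair of short coding stretches shows this repeat in a fibrillar and a network gene, each read 5′ to 3′ within 1 exon, with glycine codons in capitals.
COL5A1: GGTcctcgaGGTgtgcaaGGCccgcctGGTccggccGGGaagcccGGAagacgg
COL4A1: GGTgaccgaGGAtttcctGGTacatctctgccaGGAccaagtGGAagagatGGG
The COL5A1 stretch is its whole coding exon 16 (GRCh38, chr9:134754273-134754326, plus strand, codons 592 to 609), and its repeat is unbroken. The COL4A1 stretch (GRCh38, chr13:110198519-110198572, minus strand, codons 394 to 411) holds a break in the repeat, of the kind known to make type IV helices flexible. An exon size of 54 bases recurs in part of the family. Of the 627 internal coding exons of fibrillar genes 48.6% had exactly this length, as had 26.8% of 441 in fibril-associated genes, 4.21% of 285 in network genes and 0.413% of 157277 in other protein-coding genes.

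Collagen genes took a growing part of the RNA. They held 0.177% of recovered reads at day 0, 0.467% at day 2, 0.949% at day 3, 0.919% at day 4, 1.71% at day 6 and 5.56% at day 30 (5.55 to 5.57%). The share was 31.4 times as large at day 30 as at day 0 (interval 31.0 to 31.8), and the only step without an increase was day 4 against day 3, at 0.969 times (0.961 to 0.976). A share of reads does not depend on the scaling between libraries. The number of members with at least 1 FPKM was 24, 23, 27, 27, 30 and 35 on the 6 days in order. Across all days 37 members reached 1 FPKM, 26 reached 10 FPKM and 11 reached 100 FPKM.

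The class with the most collagen reads was not the same on all days. Fibrillar genes held 20.6, 19.7, 26.2, 25.9, 45.6 and 69.2% of collagen reads on the 6 days in order. Beaded filament genes held 25.3, 46.5, 27.6, 17.9, 15.4 and 14.1% on these days. Network genes held 23.6, 14.7, 22.5, 26.2, 17.1 and 11.6%. Type VI thus led at day 0, day 2 and day 3, network and fibrillar genes stood close together ahead of it at day 4, and fibrillar genes led at day 6 and day 30. Multiplexin genes held 14.9, 10.6, 12.4, 17.6, 15.9 and 2.60%, and of the last value COL18A1 made up 2.11 and COL15A1 0.495 percentage points. At day 30 the family was also more concentrated: 10 genes held 90% of the collagen reads, against 17 genes at day 0.

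**Figure D1:**
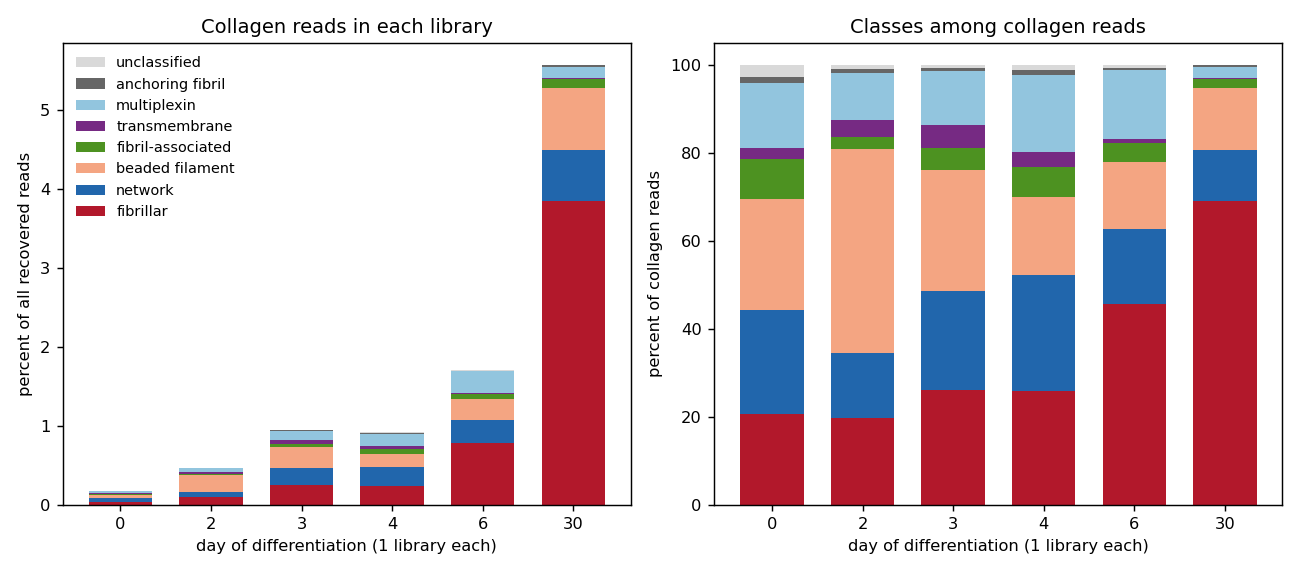
Stacked bars of collagen reads by class and day, as a percent of all recovered reads (left) and as a percent of collagen reads (right), with 1 library a day. The left bars reach 0.177% at day 0 and 5.56% at day 30, and on the right the fibrillar class grows to 69.2% at day 30 while the beaded filament class is at its highest, 46.5%, at day 2.

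COL3A1 (ENSG00000168542, chromosome 2, 188974320 to 189012746, plus strand), the chain of type III collagen, which forms fibrils together with type I in vessels and heart, showed the widest range of the family. It stood at 0, 0, 0.0307, 0.595, 174 and 4173 FPKM on the 6 days in order. Day 0 held 0 reads, and against a floor of 3 reads, or 0.0303 FPKM, the level was 137660-fold higher at day 30. The counting interval at day 0 reached up to 0.0373 FPKM, above this floor, so this fold is not a lower limit. COL3A1 was 293-fold higher at day 6 than at day 4 (229 to 380). At day 30 no other gene of the whole table had a higher FPKM, and COL3A1 alone took 2.35% of all reads and 42.2% of collagen reads. Without it, fibrillar genes still held 46.6% of the remaining collagen reads at day 30.

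The chains of type I collagen, the most abundant collagen of adult connective tissue, were present from the start. COL1A1 (ENSG00000108821, chromosome 17, 50183289 to 50201632, minus strand) stood at 8.40, 5.75, 18.5, 73.8, 269.9 and 668 FPKM on the 6 days. COL1A2 (ENSG00000164692, chromosome 7, 94394561 to 94431232, plus strand) stood at 8.10, 20.2, 29.4, 17.2, 108 and 479 FPKM. Both were highest at day 30, 79.6-fold higher than at day 0 for COL1A1 (75.2 to 84.3) and 59.1-fold higher for COL1A2 (56.0 to 62.5). The 2 chains did not move together in between. Type I is known mainly as a trimer with more alpha-1 than alpha-2 chains, and the ratio of COL1A1 to COL1A2 in FPKM was 1.04, 0.285, 0.629, 4.30, 2.49 and 1.40 on the 6 days. COL1A2 was thus the higher chain at day 2 and day 3 and COL1A1 from day 4 on. At day 0 the interval of the ratio, 0.958 to 1.12, held 1. The ratio of COL3A1 to COL1A1 was 0.00806 at day 4, 0.645 at day 6 and 6.25 at day 30.

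Type V collagen, which starts type I fibrils and limits their width, had chains that differed in their course. COL5A1 stood at 2.61, 33.8, 124, 77.8, 88.9 and 267 FPKM, and COL5A2 at 4.07, 8.87, 14.6, 20.1, 48.7 and 377 FPKM. COL5A1 was already 12.9-fold higher at day 2 than at day 0 (11.7 to 14.3), where COL5A2 did not pass the rule. COL5A2 first passed it at day 6 against day 4. Their ratio was 0.642, 3.81, 8.47, 3.87, 1.83 and 0.709, so in FPKM COL5A1 exceeded COL5A2 at every day between day 2 and day 6 and lay below it at day 0 and day 30. In reads without gene length the ratio at day 30 lay above 1, at 1.07. COL5A3, another type V chain, stayed between 0.0171 FPKM at day 6 and 4.10 FPKM at day 30.

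The other fibrillar chains, among them those best known from cartilage, differed from each other. COL2A1, the main collagen of cartilage, stood at 2.28, 5.34, 14.0, 25.3, 51.8 and 6.09 FPKM and was 8.51-fold lower at day 30 than at day 6 (7.77 to 9.35). COL11A1 stood at 7.93, 4.58, 13.3, 3.32, 3.12 and 12.5 FPKM, with day 3 and day 30 within counting error in FPKM (1.07-fold, 0.993 to 1.14). This rests on the deposited scaling. COL11A1 had 1737 of 13500887 reads at day 3 and 1403 of 14962790 at day 30, so its share of reads was higher at day 3. COL11A1 was 4.00-fold higher at day 30 than at day 6 (3.61 to 4.44). COL27A1 stood at 3.02, 5.54, 7.58, 6.47, 8.91 and 15.6 FPKM and was 5.19-fold higher at day 30 than at day 0 (4.75 to 5.67). COL11A2 reached 5.19 FPKM at day 6 and was 6.94-fold higher at day 30 than at day 0 (5.14 to 9.53), and COL24A1 never exceeded 0.550 FPKM. The 7 cartilage markers summed to 4.41, 13.9, 55.1, 86.8, 85.2 and 27.5 FPKM on the 6 days. Of these HAPLN1, which links hyaluronan and proteoglycans, stood at 0.218, 3.86, 42.1, 75.9, 76.9 and 0.524 FPKM. ACAN, the defining proteoglycan of cartilage, was at or below 0.403 FPKM in all 6 libraries. SOX9, a cartilage factor that other tissues also use, was highest at day 30, at 19.4 FPKM.

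**Figure D2:**
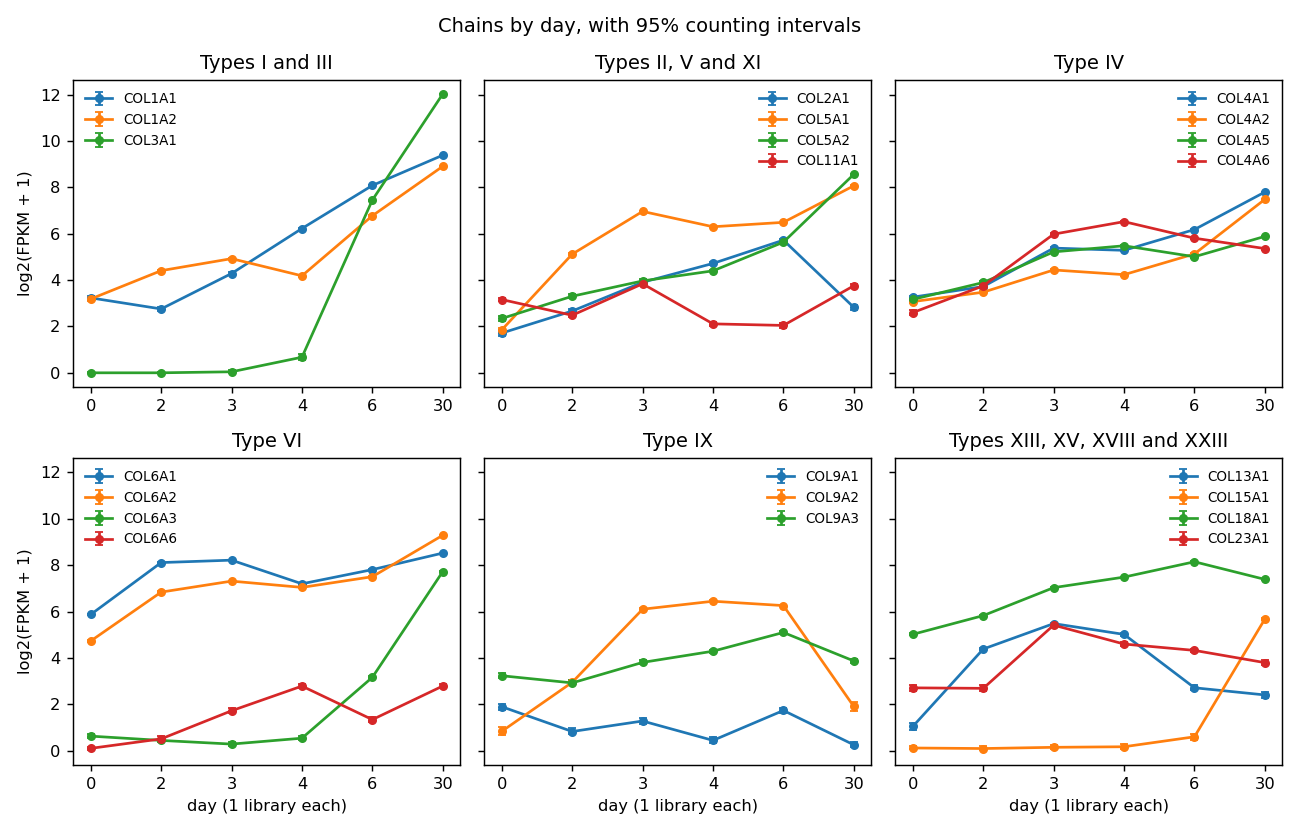
Level of named collagen chains as log2(FPKM + 1) against the day (evenly spaced, not to time scale), with 1 library a day and bars for the 95% counting interval, most of them smaller than the points. COL3A1 and COL6A3 lie near 0 up to day 4 and climb to 4173 and 210.2 FPKM at day 30, while COL2A1 and COL9A2 fall after day 6.

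Type IV collagen, the main network of basement membranes, rose in all 4 of its expressed chains. COL4A1 (ENSG00000187498) stood at 8.60, 12.2, 40.6, 37.9, 71.5 and 222 FPKM, and COL4A2 (ENSG00000134871), its partner in the common type IV trimer, at 7.40, 10.1, 20.6, 17.8, 34.0 and 178 FPKM. At day 30 they were 25.8-fold (24.6 to 27.0) and 24.0-fold (23.0 to 25.1) higher than at day 0. Their ratio stayed within 1.16 at day 0 and 2.13 at day 4 and was 1.25 at day 30. In reads without gene length it lay below 1 at day 0, day 2 and day 30, at 0.888, 0.919 and 0.951. COL4A5, found with COL4A6 in basement membranes of smooth muscle, stood at 7.98, 13.9, 36.2, 43.6, 31.2 and 58.1 FPKM. COL4A6 stood at 5.06, 12.5, 62.2, 90.8, 55.0 and 40.1 FPKM. COL4A6 was the highest type IV chain at day 3 and day 4, at 2.08 times COL4A5 on day 4, and the lowest of the 4 at day 30. COL4A3 and COL4A4, chains of the kidney filter's basement membrane, were never above 0.355 and 0.526 FPKM.

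These 6 genes lie in pairs that start back to back, COL4A1 with COL4A2 on chromosome 13, COL4A6 with COL4A5 on X and COL4A4 with COL4A3 on chromosome 2. The bases before their starts are shown because the genes of a pair share the stretch between them. In FPKM, COL4A1 stood at 1.16 to 2.13 times COL4A2 and COL4A5 at 0.480 to 1.58 times COL4A6 over the 6 libraries. COL4A3 stood at 0.355, 0.0204, 0.145, 0.0763, 0.0380 and 0.319 FPKM on the 6 days in order, on 3 to 47 reads. COL4A4 stood at 0.526, 0.179, 0.422, 0.327, 0.344 and 0.305 FPKM, so both were low in every library. Sequences are from RefSeq (GRCh38.p14), in which 32 of the 44 members had a promoter entry. Capitals mark the CCAAT box (CCAAT or, on the other strand, ATTGG) and the GC box (GGGCGG or CCGCCC), motifs that do not overlap each other here.
COL4A1 and COL4A2, all 126 bases between both starts, chr13:110307158-110307283, plus strand: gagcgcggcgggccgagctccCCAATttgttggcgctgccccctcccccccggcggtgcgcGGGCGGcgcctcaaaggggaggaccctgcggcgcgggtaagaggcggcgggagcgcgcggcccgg
COL4A6, 250 bases before its start, chrX:108439459-108439708, minus strand: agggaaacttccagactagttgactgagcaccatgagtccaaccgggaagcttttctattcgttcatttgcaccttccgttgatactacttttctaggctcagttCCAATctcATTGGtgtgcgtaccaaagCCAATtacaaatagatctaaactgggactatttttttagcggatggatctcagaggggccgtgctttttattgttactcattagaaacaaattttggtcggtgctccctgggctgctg
COL4A3, 250 bases before its start, chr2:227164374-227164623, plus strand: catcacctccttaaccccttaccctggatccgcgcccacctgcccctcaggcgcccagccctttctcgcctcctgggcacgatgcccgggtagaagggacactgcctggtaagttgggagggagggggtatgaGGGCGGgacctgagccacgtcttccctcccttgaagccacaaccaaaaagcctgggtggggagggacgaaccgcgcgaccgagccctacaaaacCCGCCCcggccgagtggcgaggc
The COL4A1 and COL4A2 interval holds 1 CCAAT box and 1 GC box, the COL4A6 window 3 CCAAT boxes, and the COL4A3 window 2 GC boxes. The starts of COL4A6 and COL4A5 are 379 bases apart, and those of COL4A4 and COL4A3 are 418 bases apart. On either strand of the 250 bases before a start, 32.0% of all 35116 promoters hold a CCAAT box, 42.6% a GC box and 10.7% the TATA box TATAAA. Of the 44 promoters of members, 27.3% hold a CCAAT box, 54.5% a GC box and 18.2% TATAAA. Counted by gene, with any of its promoters, 11 of the 32 members hold a CCAAT box, 21 a GC box and 7 TATAAA. Of the 6 type IV genes, 4 hold a CCAAT box, 4 a GC box and 0 TATAAA. The windows of a type IV pair overlap, so 1 box can count for both genes of the pair. A match is a description of the letters and not of a bound factor.

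The other network genes were low. COL8A1 and COL8A2, of the cornea's and vessel wall's type VIII collagen, were highest at day 30, at 1.38 and 2.37 FPKM. COL10A1, of hypertrophic cartilage, stayed at or below 0.234 FPKM.

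Type VI collagen was the family's strongest type at day 0 in reads, through 2 of its chains. COL6A1 (ENSG00000142156, chromosome 21, 45981737 to 46005050, plus strand) stood at 57.6, 276, 297, 146, 223 and 367 FPKM. COL6A2 (ENSG00000142173, chromosome 21, 46098097 to 46132849, plus strand) stood at 25.6, 113, 158, 131, 180.5 and 625 FPKM. COL6A3 (ENSG00000163359, chromosome 2, 237324003 to 237414375, minus strand), the long chain that completes the usual type VI monomer, stood at 0.543, 0.357, 0.217, 0.451, 7.96 and 210.2 FPKM. COL6A1 and COL6A2 were thus high from day 2 on, and COL6A3 stayed under 1 FPKM up to day 4. The ratio of COL6A3 to COL6A1 was 0.00943, 0.00130, 0.000730, 0.00310, 0.0356 and 0.573. COL6A3 was 17.6-fold higher at day 6 than at day 4 (14.9 to 21.0) and 26.4-fold higher at day 30 than at day 6 (25.4 to 27.5). Of the alternative partner chains, COL6A6 stood at 0.0708, 0.422, 2.30, 5.89, 1.53 and 5.90 FPKM, and COL6A5 was at most 0.0507 FPKM. COL6A1 exceeded COL6A2 by 2.25 times at day 0, and at day 30 the order was reversed, at 0.587 times.

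**Figure D3:**
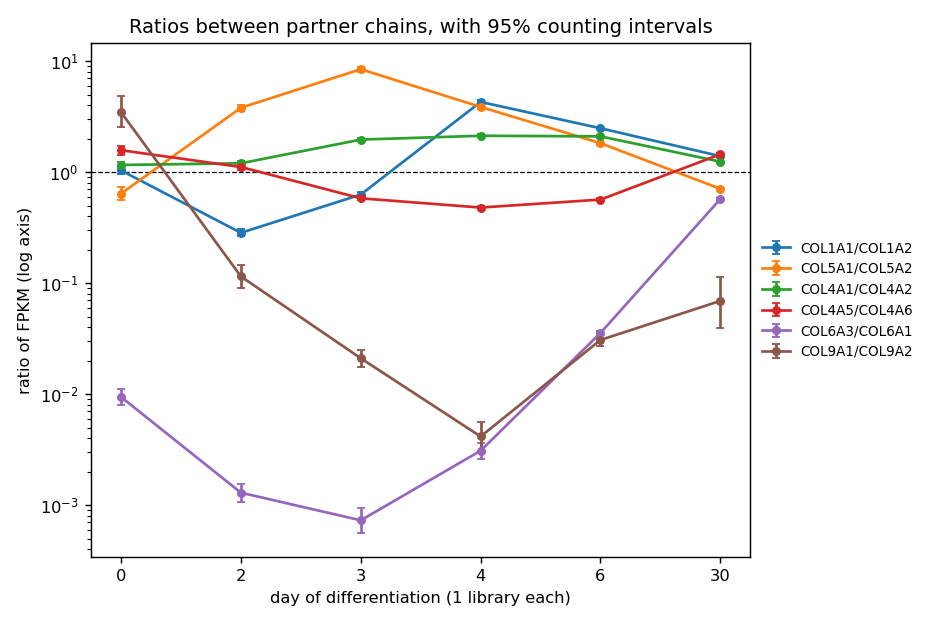
Ratio of FPKM between partner chains in each library (days evenly spaced), on a log axis, with 95% counting intervals and a dashed line at 1. COL6A3 over COL6A1 is lowest at day 3, at 0.000730, and reaches 0.573 at day 30, and COL1A1 over COL1A2 crosses 1 between day 3 and day 4.

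Among fibril-associated genes, those of type IX collagen, which decorates type II fibrils in cartilage, had very unequal RNA levels. COL9A2 stood at 0.783, 6.72, 67.7, 86.1, 75.5 and 2.74 FPKM. COL9A3 stood at 8.39, 6.58, 13.0, 18.6, 33.3 and 13.6 FPKM. COL9A1 stood at 2.72, 0.772, 1.43, 0.358, 2.32 and 0.190 FPKM, so it was the lowest of these chains from day 2 on. The ratio of COL9A1 to COL9A2 fell to 0.00416 at day 4, against 3.47 at day 0. At day 30 COL9A2 was 27.5-fold lower than at day 6 (23.3 to 32.7).

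The other fibril-associated genes were mostly a feature of day 30. COL14A1 and COL16A1, which bind fibrils in skin and tendon, had 53.1 and 67.7 FPKM at day 30, against 0.796 and 1.09 FPKM at day 6. COL14A1 had started at 6.42 FPKM at day 0 and was lower on every later day up to day 6. COL22A1, a collagen of tissue junctions, had 15.1 FPKM at day 30, against 5.98 FPKM at day 6. COL12A1 and COL21A1 were highest at day 30, at 5.36 and 3.83 FPKM, and COL20A1 stayed at or below 0.332 FPKM. COL19A1 went the other way: it stood at 0, 0.234, 2.53, 8.36, 8.08 and 0.514 FPKM.

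Transmembrane collagens peaked early. COL13A1, known from the neuromuscular junction, stood at 1.06, 19.9, 43.7, 31.3, 5.55 and 4.29 FPKM, and COL23A1 at 5.54, 5.44, 41.7, 23.2, 19.0 and 12.9 FPKM. COL25A1 was also highest at day 3, at 5.16 FPKM, whereas COL17A1, of the hemidesmosomes of skin, was highest at day 30, at 2.46 FPKM. Together the class held 5.20% of collagen reads at day 3 and 0.182% at day 30.

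The multiplexins COL18A1 and COL15A1, both of basement membrane zones, had unlike levels and courses. COL18A1, the precursor of endostatin, stood at 31.4, 55.7, 129.8, 178, 283 and 166 FPKM. COL15A1 stood at 0.0828, 0.0653, 0.105, 0.124, 0.513 and 50.1 FPKM. COL15A1 was 97.7-fold higher at day 30 than at day 6 (75.6 to 129), and the ratio of COL15A1 to COL18A1 was 0.301 at day 30, against 0.00182 at day 6. COL18A1 stayed the higher of both at day 30. It was 1.70-fold lower than at day 6 (1.67 to 1.73), which did not pass the rule. Its reads were 17532 of 14962790 at day 30, against 41653 of 15418010 at day 6, and scaled by total reads this fall passes the rule. Of COL18A1's exonic bases, 16.4% are shared with SLC19A1 on the opposite strand, which had 4.50 to 14.1 FPKM, and whether counting used strand is not given in the sources used here. COL7A1, of the skin's anchoring fibrils, stood at 2.05, 3.51, 5.16, 8.90, 5.32 and 17.3 FPKM. COL26A1 stood at 15.6, 13.3, 17.5, 27.3, 30.0 and 5.49 FPKM, and COL28A1 never exceeded 0.210 FPKM.

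**Figure D4:**
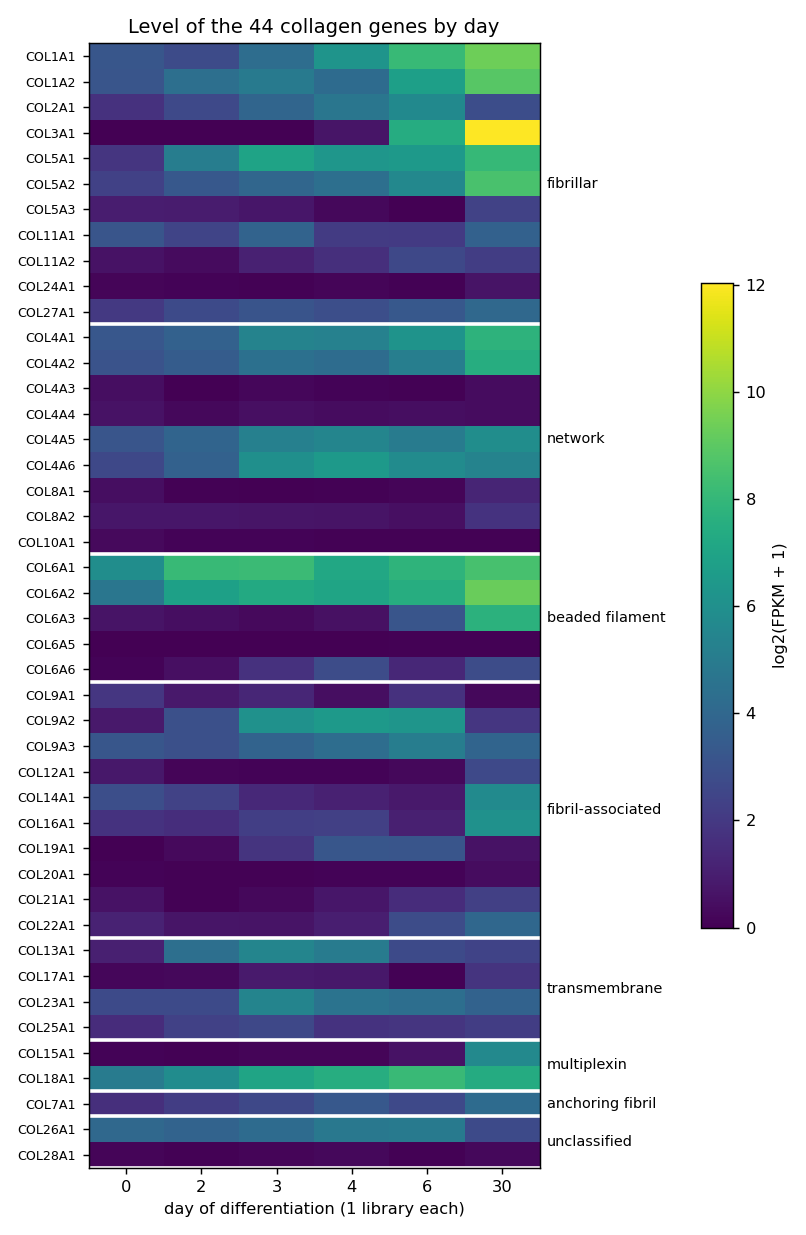
Colour map of log2(FPKM + 1) for the 44 collagen genes (rows, by class) and the 6 days (columns, 1 library each). The brightest cell is COL3A1 at day 30, with 4173 FPKM, and 27 of the 44 rows are brightest at day 30.

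The day of highest level was day 30 for 27 of the 44 members, day 6 for 5, day 4 for 4, day 3 for 4, day 0 for 4 and day 2 for none. Of the 37 members that reached 1 FPKM, 24 (64.9%) were highest at day 30, against 31.9% of the 20481 genes of the table that did. For these 37 the shares were 2.70% at day 0, 0% at day 2, 10.8% at day 3, 8.11% at day 4 and 13.5% at day 6. Over the 20481 genes they were 21.5, 12.6, 9.08, 11.5 and 13.4%, so the members' shares at day 3, day 4 and day 6 lay near those of all genes. In deposited FPKM, the 5 beaded filament genes, COL6A5 at its very low level included, and 8 of 11 fibrillar genes were highest at day 30, against 1 of 4 transmembrane genes. The day of highest level was not counted under other scalings. As a share of all recovered reads, COL6A1 was highest at day 3, COL6A6 at day 4 and COL6A5, on 8 reads, at day 6. COL6A1 had 22727 of 13500887 reads at day 3 and 24206 of 14962790 at day 30. For 9 members the interval of the highest over the second-highest day included 1, among them COL11A1, COL6A6 and COL19A1.

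For each step a gene was called higher or lower when log2(FPKM + 1) differed by at least 1 and it had at least 1 FPKM in either library. This is a rule of size and not a test. At day 2 against day 0, 7 of the 44 members were higher and 1 was lower, with 25 measured, while 8.78% of all tested genes were higher and 7.75% lower. The 7 were COL1A2, COL5A1, COL4A6, COL6A1, COL6A2, COL9A2 and COL13A1, and COL9A1 was lower. The greatest rise was that of COL13A1, 18.7-fold higher (15.1 to 23.3), and COL6A1 was 4.79-fold higher (4.64 to 4.94).

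At day 3 against day 2, 13 of 44 members were higher and 0 lower, with 27 measured, and the background was 7.13% higher and 4.98% lower. Of the 13, 3 were type IV chains, and COL4A6 was 4.99-fold higher (4.74 to 5.25). Of the rest, COL9A2 was 10.1-fold higher (9.14 to 11.1), COL19A1 10.8-fold (7.52 to 16.1) and COL23A1 7.65-fold (6.82 to 8.62). At day 4 against day 3 the count was 3 higher and 2 lower of 28 measured, with a background of 4.23% higher and 3.59% lower. COL1A1 was 3.99-fold higher (3.83 to 4.17), with COL6A6 and COL19A1, while COL11A1 was 4.01-fold lower (3.62 to 4.45) and COL6A1 2.03-fold lower (1.99 to 2.08).

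At day 6 against day 4, 9 members were higher and 3 lower of 31 measured, against 5.51% higher and 6.71% lower of all tested genes. With TPM computed from the FPKM, 14 members were higher and 4 lower, against 14.2% and 11.0% of genes. Of the 9, 6 were fibrillar: COL1A1, COL1A2, COL2A1, COL3A1, COL5A2 and COL11A2. COL1A2 was 6.31-fold higher (6.08 to 6.56). COL13A1 was 5.64-fold lower (5.15 to 6.18), and COL6A6 and COL16A1 were lower too. At day 30 against day 6, 21 members were higher and 6 lower of 37 measured, with a background of 21.0% higher and 15.3% lower. Scaled by total reads, 18 were higher and 7 lower, against 14.4% and 24.1% of genes, and with TPM 22 and 7, against 21.5% and 28.1%. The 6 were COL2A1, COL9A1, COL9A2, COL9A3, COL19A1 and COL26A1, so 4 of them were fibril-associated. COL5A2 was 7.74-fold higher (7.54 to 7.95), and COL16A1 62.4-fold higher (53.6 to 72.9).

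Over the whole course, day 30 against day 0, 30 of 44 members were higher and 2 lower of 36 measured, against 25.9% higher and 19.1% lower of all 17874 tested genes. This comparison shares its day 30 library with the one before. The median difference in log2(FPKM + 1) over all 44 members was 1.65, and over all tested genes it was 0.13. Higher were 9 of 11 fibrillar, 5 of 9 network, 4 of 5 beaded filament, 6 of 10 fibril-associated, 3 of 4 transmembrane and both multiplexin genes, and COL7A1. COL6A3 was 387-fold higher (330 to 456), COL5A1 102-fold (92.9 to 113), COL5A2 92.5-fold (84.2 to 102) and COL16A1 28.7-fold (25.6 to 32.2). The 2 lower members were COL9A1, 14.3-fold lower (8.78 to 24.9), and COL26A1, 2.84-fold lower (2.44 to 3.33). COL11A1, COL8A1, COL9A3 and COL25A1 were measured and passed in neither direction, and 8 members had less than 1 FPKM in both libraries.

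**Figure D5:**
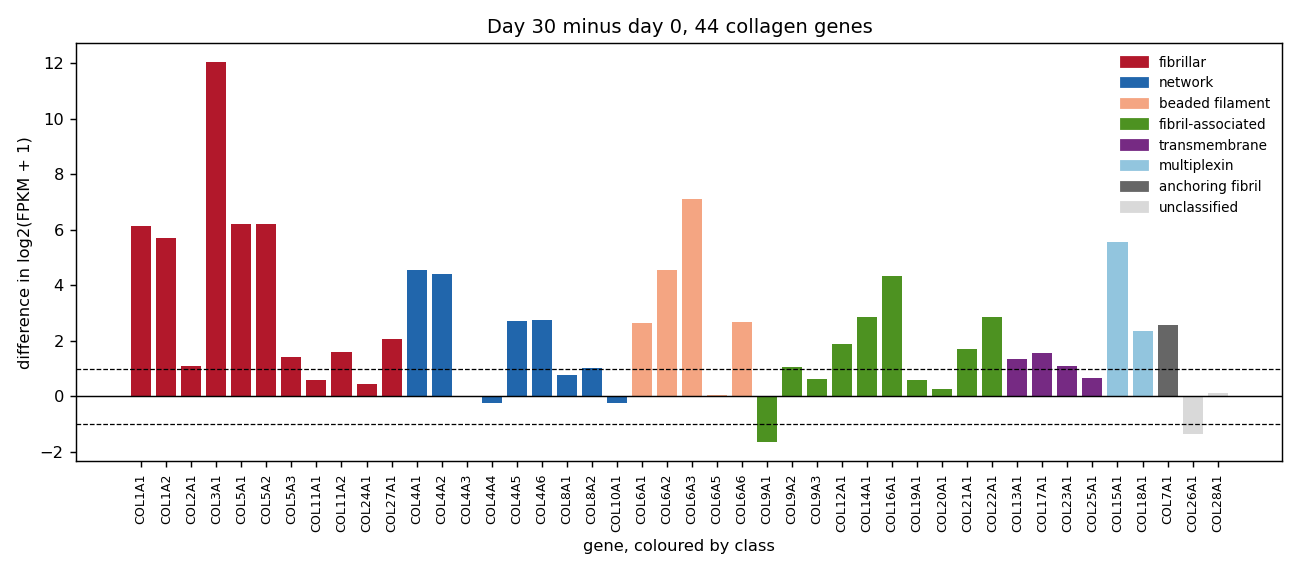
Difference in log2(FPKM + 1), day 30 minus day 0, for each of the 44 collagen genes, coloured by class, with dashed lines at 1 and -1 where a gene is called. COL3A1 stands at 12.03, followed by COL6A3 at 7.10, and COL9A1 and COL26A1 lie below the lower line.

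Genes that act on collagens were counted in the same comparison, day 30 against day 0, in which 25.9% of all tested genes were higher and 19.1% lower. All 6 genes of the cross-linking list were higher. LOX, which joins collagen chains by oxidising lysines, stood at 5.51, 4.41, 29.8, 2.64, 1.48 and 209 FPKM on the 6 days, so it had an early peak at day 3 and a far higher level at day 30. TGM2, a transglutaminase, had 13.9 FPKM at day 30, against 0.223 FPKM at day 0, and the smallest difference was that of LOXL1, 2.32-fold (1.93 to 2.80).

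The hydroxylase and glycosyltransferase list, which modifies prolines and lysines of new chains, had 8 of 15 genes higher and 0 lower, with 14 measured. PLOD1, a lysyl hydroxylase, was 4.22-fold higher (3.99 to 4.47), and P3H4, of the lysyl hydroxylase complex, 4.01-fold (3.47 to 4.65). P4HB, a subunit of prolyl hydroxylases, had 187 FPKM at day 30, against 57.4 FPKM at day 0. The folding and export list had 5 of 12 higher and 1 lower, with 12 measured, against the same 25.9% and 19.1% of all genes. FKBP10, a collagen chaperone, was 4.55-fold higher (4.36 to 4.75), and CREB3L1, a transcription factor of secretory cells, 4.94-fold (4.33 to 5.67). KLHL12, a ubiquitin ligase adaptor of procollagen transport, had 4.67 FPKM at day 30, against 15.0 FPKM at day 0, and was called lower.

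The procollagen processing list had 4 of 9 higher and 1 lower, with 7 measured, against 25.9% and 19.1% of all genes. ADAMTS2 and BMP1, which cut off the chain ends, were 23.7-fold (20.5 to 27.6) and 21.4-fold (17.5 to 26.5) higher, and PCOLCE2 was the lower one, at 0.549 FPKM at day 30, against 2.30 FPKM at day 0. Of the receptors, 7 of 11 were higher and 0 lower, with 10 measured. DDR2, a receptor kinase for fibrillar collagen, had 36.1 FPKM at day 30, against 0.513 FPKM at day 0, and MRC2, an uptake receptor, had 118 FPKM at day 30, against 5.00 FPKM at day 0. GP6 had the largest fall of the list, with 0.479 FPKM at day 30, against 1.40 FPKM at day 0, and was not called. The integrin ITGB1 had 109 FPKM at day 30, against 116 FPKM at day 0, and was not called either.

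Of the degradation list, 5 of 7 genes were higher and 0 lower, with 5 measured. MMP14, a membrane-bound protease, had 395 FPKM at day 30, against 12.7 FPKM at day 0. MMP1, the interstitial collagenase, had 56.5 FPKM at day 30, against 0 FPKM and 0 reads at day 0. Against a floor of 3 reads at day 0 it was 539-fold higher.

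Markers of other cell types moved over the same days. The 6 fibroblast markers (DCN, LUM, PDGFRA, TCF21, THY1 and FBLN1) summed to 106, 66.4, 108, 111, 235 and 552 FPKM. DCN and LUM, the proteoglycans among them, had 39.7 and 373 FPKM at day 30, against 0.0630 and 60.1 FPKM at day 6 and 0 at day 0. THY1 went the other way, with 3.51 FPKM at day 30, against 82.4 FPKM at day 0, and made up most of the sum at day 0. FBLN1 had 73.2 FPKM at day 30, against 126 FPKM at day 6. The smooth muscle and pericyte markers summed to 21.8, 18.2, 28.3, 59.1, 127 and 287 FPKM, with MYH11 at or below 0.216 FPKM in every library. Of these PDGFRB had 182 FPKM at day 30, against 15.2 FPKM at day 6, while RGS5 was lower, with 14.0 against 94.2 FPKM. The 7 endoderm and liver markers summed to 0.398 FPKM at day 0, 380 at day 6 and 546 at day 30. AFP had 299 FPKM at day 30, against 1.10 FPKM at day 6, and ALB and FGB were higher too. APOA1, TTR, APOB and HNF4A were lower, APOA1 with 125 FPKM at day 30, against 264 FPKM at day 6. The cardiomyocyte markers summed to 2.31, 357 and 209 FPKM at day 0, day 6 and day 30. MYL7 made up most of the cardiomyocyte sum at day 6, with 64.0 FPKM at day 30, against 336 FPKM at day 6. TTN was also slightly lower at day 30, while the other 5 were higher, among them MYH6 with 69.0 FPKM at day 30, against 3.43 FPKM at day 6. The 6 epicardial markers summed to 0.687, 1.91, 0.723, 1.65, 10.4 and 33.4 FPKM on the 6 days, with WT1 at 14.8 FPKM and BNC1 at 14.2 FPKM at day 30. The 6 bone markers summed to 33.9, 8.15, 5.27, 9.54, 2.99 and 17.5 FPKM. Of these SPP1 had 10.0 FPKM at day 30, against 33.3 FPKM at day 0, RUNX2 had 6.64 FPKM at day 30, against 0.0168 FPKM at day 0, and IBSP and DMP1 were at or below 0.157 FPKM throughout. The endothelial markers summed to 1.66, 2.47, 21.2, 17.0, 19.1 and 8.17 FPKM, the neural ones to 6.97, 45.5, 95.6, 56.2, 7.10 and 26.7 FPKM, and the neural crest ones to 54.1, 17.7, 23.7, 18.7, 14.1 and 16.9 FPKM. VWF alone had 20.3 FPKM of the endothelial sum at day 3. Of the neural markers, OTX2 and STMN2 had 67.5 and 27.8 FPKM at day 3, and STMN2 had 25.8 FPKM at day 30. SOX1, PAX6, TUBB3 and ELAVL3 were at or below 0.640 FPKM from day 2 on. The skeletal muscle markers stayed at or below 1.68 FPKM in sum. The part of these cell types in the collagen levels was not tested.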

How the data were processed

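The authors deposited 1 table of FPKM values for 58735 genes and 6 libraries, 1 for each time point, with gene positions and lengths. Per the submitters' processing notes, CASAVA, HISAT2 and featureCounts 1.5.0-p3 were used. Their settings, the build and the use of strand were not given in the sources used here. All 58735 gene positions equal those of GENCODE release 29 on GRCh38. Multiplied by gene length, 100% of the values above 0 were whole reads within 0.001 read, which gave the reads behind shares, ratios and intervals. The library denominators behind FPKM were 0.826 (day 30) to 1.12 times (day 6) the read totals.

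Members and lists were chosen with earlier results of these data known. Members reaching 10 FPKM and their partner chains are given by day, and 2 to 4 genes per list by their difference at day 30 against day 0. ITGB1, with little difference, was named outside this rule. A pseudocount of 1 was used, which understates changes of low genes. Shares have exact Clopper-Pearson intervals, and ratios and folds exact conditional binomial ones. A floor of 3 reads stands for 0 reads. Coding exons are those of each gene's longest coding transcript. Scripts ran in Python 3.11.15 with SciPy 1.17.1 and were tested on simulated data. Alternatives were a pseudocount of 0.1, other FPKM minimums, other scalings, a stricter rule and shares of summed FPKM.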

Additional observations from a re-analysis of the deposited data

How the results depend on the processing

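No paired analysis was possible because each day has 1 library, and none could be left out in turn. Intervals cover counting error only, so no value here has been set against variation between cultures. Scaling by total reads moved the median of all tested genes by -0.44 on the log2 scale at day 30 against day 6 and by -0.25 at day 30 against day 0, TMM scaling by -0.14 and -0.12. TPM moved it by 0.24 at day 3 against day 2, -0.14 at day 4 against day 3, 0.20 at day 6 against day 4 and -0.31 at day 30 against day 6. Of the counts of members called, 90 of 108 stayed within 1.5 times the reported count. Part of these could not move. Without an FPKM minimum the counts are fixed, because a difference of 1 with a pseudocount of 1 already needs 1 FPKM. Median-of-ratios scaling nearly repeats the deposited scaling, with median shifts of -0.0208 to 0.000241. With TPM, 11 members were higher and 4 lower at day 2 against day 0, against 16.0% and 12.3% of all tested genes. At day 3 against day 2, 1 was lower, against 8.36% of genes. At day 4 against day 3, 5 were higher and 5 lower, against 9.40% and 9.94%. At day 6 against day 4, 14 were higher, against 14.2%. A log2 difference of at least 2 left 0 lower at day 2 against day 0, against 0.830% of genes. It left 3 higher at day 3 against day 2, against 0.892%, and 0 higher and 0 lower at day 4 against day 3, against 0.385% and 0.305%. At day 6 against day 4 it left 3 higher and 1 lower, against 0.915% and 1.07%. It left 10 higher at day 30 against day 6, against 6.14% of genes, and 0 lower at day 30 against day 0, against 4.79%. An FPKM minimum of 5 left 0 lower at day 2 against day 0, against 7.17% of genes, and 1 lower at day 30 against day 0, against 21.3%. A pseudocount of 0.1 gave 1 lower at day 3 against day 2, against 8.53% of genes, and 4 lower at day 4 against day 3, against 6.72%. Of all tested genes, over the 6 comparisons, TPM called 9.40 to 32.8% higher and 8.36 to 28.1% lower, a log2 difference of at least 2 called 0.385 to 8.46% and 0.305 to 4.79%, an FPKM minimum of 5 called 2.50 to 27.5% and 2.78 to 21.3%, and a pseudocount of 0.1 called 7.69 to 32.3% and 6.72 to 24.7%. As a share of summed FPKM, collagens held 0.0802, 0.234, 0.499, 0.422, 0.816 and 2.92% on the 6 days in order. Without mitochondrially encoded genes the share of reads was 0.191, 0.497, 0.977, 0.969, 1.77 and 5.67%, and over protein-coding genes 0.185, 0.484, 0.982, 0.958, 1.77 and 5.71%. Of summed collagen FPKM, fibrillar genes held 16.2, 13.2, 19.0, 20.7, 41.3 and 73.8%, network genes 13.3, 7.66, 13.7, 17.5, 10.5 and 6.17% and beaded filament genes 35.8, 60.2, 38.9, 25.9, 22.5 and 14.8%. So measured, beaded filament genes also led at day 4. Without COL1A1, the member with the most reads at day 6, fibrillar genes held 41.0%, network genes 18.5% and beaded filament genes 16.7% of that day's collagen reads. Without COL3A1, the member with the most reads at day 30, fibrillar genes held 46.6%, network genes 20.0% and beaded filament genes 24.4% of that day's collagen reads. Ratios of reads without gene length moved 62 of 78 chain ratios beyond their counting interval. Without length, 9 of the 78 lay on the other side of 1: COL6A3 over COL6A1 at day 30, at 2.11, COL5A1 over COL5A2 at day 30, at 1.07, COL4A1 over COL4A2 at day 0, day 2 and day 30, at 0.888, 0.919 and 0.951, COL4A5 over COL4A1 at day 2 and day 4, at 0.917 and 0.926, COL1A1 over COL1A2 at day 0, at 0.912, and COL9A3 over COL9A2 at day 2, at 1.13.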

Other observations

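Some collagen genes lie next to each other with no other protein-coding gene between them. COL3A1 and COL5A2 lie tail to tail on chromosome 2, 19149 bases apart, and had 4173 and 377 FPKM at day 30, against 0 and 4.07 FPKM at day 0. COL19A1 and COL9A1 lie tail to tail on chromosome 6, 5084 bases apart. COL19A1 had 8.36 FPKM at day 4 and 8.08 FPKM at day 6, while COL9A1 had 0.358 and 2.32 FPKM on these days. For COL9A1 day 0, at 2.72 FPKM, could not be told from day 6 by counting error (1.17-fold, 0.990 to 1.38). COL6A1 and COL6A2 lie on the same strand of chromosome 21, 93046 bases apart, and were the 2 highest beaded filament genes in all 6 libraries. COL6A5 and COL6A6 lie on the same strand of chromosome 3, 75489 bases apart, and COL6A6 reached 5.90 FPKM at day 30, against 0.0507 FPKM of COL6A5 in the same library.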
